A study of Danio rerio with 8 samples.

Results

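In the regenerating retina of adult *mpeg1*:GFP zebrafish, 151 of 52122 listed transcripts were read in every GFP- library and in no GFP+ library. They were chosen as the transcripts with 10 or more reads in all 4 GFP- libraries and 0 reads in all 4 GFP+ libraries, after each estimated read number was rounded to a whole number. The 151 are referred to here as negative-only transcripts, a name that stands for the rule and carries the detection limits given below. All 8 libraries came from *mpeg1*:GFP (gl22) fish aged 10 to 12 months, a line whose GFP is driven by the macrophage promoter *mpeg1*. An intravitreal injection brought ouabain to an estimated 2 µM in 1 eye of each of 32 fish, and retinas were collected 7 days later and pooled 8 at a time into 4 pools. Each pool was sorted into GFP- and GFP+ cells, so that a GFP- and a GFP+ library with the same number share their retinas. All fish were lesioned, and uninjured retinas are not part of this comparison.

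Ouabain blocks the sodium-potassium pump and kills inner retinal neurons, and in zebrafish Müller glia then re-enter the cell cycle and produce progenitors that replace them. The *mpeg1* promoter is active in microglia and macrophages, so the GFP- gate can hold every other cell of the dissociated tissue, among them photoreceptors, Müller glia and their progeny, remaining neurons, vascular cells and blood cells. A transcript of any of these cells that microglia do not make may appear in the GFP- libraries alone. The deposited tables list Ensembl transcripts without gene names, and no table used here pairs these identifiers with genes. The negative-only transcripts are therefore described by identifier, rank, length and abundance, and their cell types were not checked against marker genes.

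Libraries were made with QuantSeq, which reads about 1 fragment near the 3' end of each mRNA, so that abundance does not scale with transcript length. Abundance is given as TPM, which in these files is the read number of a transcript relative to the library total, with no correction for length. The GFP- libraries held between 7316619 and 27727554 assigned reads, with the smallest total in GFP- replicate 3, and the GFP+ libraries between 17489304 and 23702022. The minimum for membership, 10 reads, corresponded to 0.362, 0.454, 1.37 and 0.361 TPM in GFP- replicates 1 to 4. The rule thus asked more of GFP- replicate 3 than of the other GFP- libraries.

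Transcripts with 10 or more reads in all 4 GFP- libraries for the most part also had reads in GFP+ libraries. With 10 or more reads in every GFP- library, 7243 transcripts could have been negative-only, and 5003 of them (69.1%) had reads in all 4 GFP+ libraries. The numbers at 0 in 1, 2 and 3 GFP+ libraries were 1077, 622 and 390, and the 151 at 0 in all 4 made up 2.08%. The 7092 transcripts with a read in at least 1 GFP+ library are called shared transcripts below. A single read in 1 GFP+ library was enough for this name, so it does not mean that GFP+ cells make the transcript. Whether such reads came from GFP+ cells or were carried over from GFP- cells was not tested. Under the mirrored rule, 52 of 5494 transcripts with 10 or more reads in all GFP+ libraries (0.946%) had 0 reads in all GFP- libraries.

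The share of negative-only transcripts fell with abundance in GFP- cells. Between 2 and 5 TPM on average, 28 of 354 transcripts (7.91%) were negative-only, between 5 and 10 TPM 59 of 1083 (5.45%), between 10 and 20 TPM 41 of 1875 (2.19%) and between 20 and 40 TPM 19 of 1705 (1.11%). Above 40 TPM, none of 2200 was. Below 2 TPM there were 4 of 26.

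**Figure D1:**
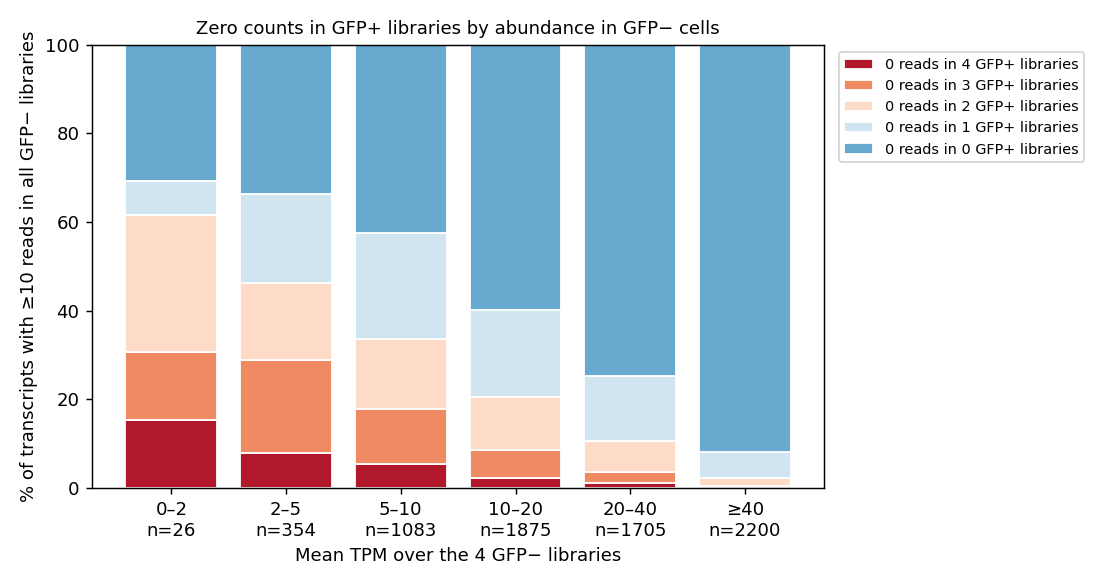
Transcripts with 10 or more reads in all 4 GFP- libraries, grouped by mean TPM in GFP- cells (horizontal axis, with the number of transcripts) and divided by the number of GFP+ libraries with 0 reads (vertical axis, percent). The negative-only transcripts, at 0 in 4 GFP+ libraries, shrink from 7.91% at 2 to 5 TPM to 1.11% at 20 to 40 TPM, and none lies above 40 TPM.

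Many transcripts lay close to the edge of the rule. On the GFP+ side, 147 transcripts that met the GFP- minimum had a highest GFP+ count of 1 read, and 60 had a highest count of 2. On the GFP- side, 6 negative-only transcripts had exactly 10 reads in their lowest GFP- library, with mean abundances from 1.68 to 12.9 TPM, and 6 transcripts with 0 GFP+ reads missed the minimum at 9 reads, with means from 2.63 to 24.1 TPM. A single library kept many more out. Of the transcripts with 0 GFP+ reads and 10 or more reads in 3 GFP- libraries, 261 fell short in GFP- replicate 3 alone, against 55, 94 and 69 in GFP- replicates 1, 2 and 4. In GFP- replicate 3, 199 of the 261 were at 0. Over all 261, the highest number in another GFP- library was 2307 reads. Among the GFP+ libraries, a transcript could be at 0 in 3 and have up to 2425 reads in the other one. Of 80 transcripts read in GFP+ replicate 2 alone among the GFP+ libraries, 50 had 10 or more reads there. Applied to the 3 pools that remained when pool 1, 2, 3 or 4 was left out, the rule gave 335, 353, 554 and 362 transcripts. Leaving out a pool can only relax the rule, so each list held all 151 by construction.

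The 0 reads of the negative-only transcripts in GFP+ cells carry a detection limit. A count of 0 was taken to allow up to 3 reads, which is 0.127, 0.127, 0.172 and 0.142 TPM in GFP+ replicates 1 to 4. Copies made by PCR were not marked, so these limits and the intervals below cover counting error only. Of the 151, 142 had an estimate of exactly 0 in every GFP+ library, and 9 had an estimate below 0.5 reads that rounded to 0. Against the highest of these limits, mean abundance in GFP- cells was 9.82-fold higher for the weakest negative-only transcript, 51.1-fold for the median one and 226.2-fold for the strongest. Libraries differed by more than counting error, since a transcript at 0 in 3 GFP+ libraries could have up to 2425 reads in the other one. The folds are therefore not minimums. These folds describe the choice made by the rule and are not a test.

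Together the negative-only transcripts, a choice that leaves out any transcript with a GFP+ read, were a small part of the GFP- mRNA. In sorted bulk cells, fewer cells of a type and less RNA per cell cannot be told apart. They held 0.115%, 0.129%, 0.238% and 0.139% of the reads in GFP- replicates 1 to 4, a mean of 0.155% ± 0.0563 (SD, n = 4). GFP- replicate 3 was the highest, with a 95% Wilson interval from 0.235% to 0.242%, and the other 3 lay between 0.113% and 0.140% with their intervals. Without GFP- replicate 3 the mean of the same 151 was 0.128% ± 0.0122 (SD, n = 3). The totals include very abundant transcripts, and the strongest shared one had a mean of 279555 TPM in GFP- cells. With the most-read transcript left out of the totals, the mean share of the 151 was 0.222%. The longer lists that the rule gave without pool 1, 2, 3 or 4 held means of 0.383%, 0.340%, 0.446% and 0.379%. The 52 transcripts of the mirrored rule held between 0.0618% and 0.0874% of the GFP+ reads, a mean of 0.0766% ± 0.0111 (SD, n = 4).

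Each negative-only transcript was of low to moderate abundance. Mean TPM over the 4 GFP- libraries had a median of 8.76 (quartiles 5.32 and 12.3) and ran from 1.68 to 38.8, while the shared transcripts had a median of 22.7 (quartiles 12.0 and 49.8). Of the shared transcripts, 2263 (31.9%) had a higher mean than the strongest negative-only transcript. The rule bears on this difference, since a single GFP+ read leaves a transcript out. Above 40 TPM, 2020 of the 2200 transcripts with 10 or more reads in all GFP- libraries had reads in all 4 GFP+ libraries. These abundances therefore describe the transcripts picked by the rule and not all transcripts enriched in GFP- cells. Within single libraries, the median negative-only transcript had 4.53, 6.40, 9.16 and 5.88 TPM in GFP- replicates 1 to 4, and GFP- replicate 3 had this highest median on the fewest reads, a median of 67. No small set of transcripts carried the total. The strongest made up 2.499% of the summed mean TPM, the 10 strongest 18.5%, and 39 were needed to reach 50%.

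**Figure D2:**
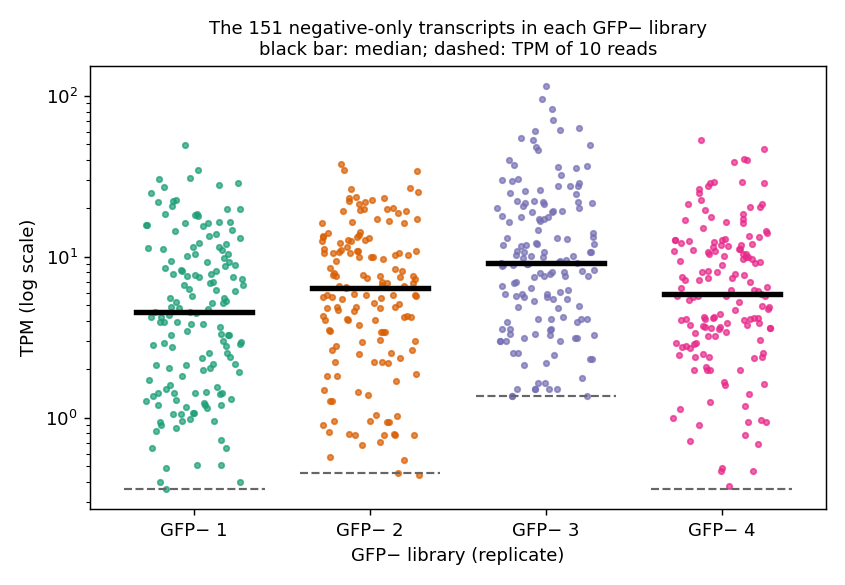
TPM (vertical axis, log scale) of each of the 151 negative-only transcripts in GFP- replicates 1 to 4, with the median as a black bar and the TPM of 10 reads as a dashed line; 10 reads can lie just under the line because estimates were rounded. The median is highest in GFP- replicate 3, at 9.16 TPM, where the minimum set by the rule is also highest, at 1.37 TPM.

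The strongest negative-only transcript, ENSDART00000174581.1, of 9991 bases, had 18.1, 14.3, 82.8 and 39.996 TPM in GFP- replicates 1 to 4, from 500, 315, 606 and 1109 reads, against 0 reads in each of the 4 GFP+ libraries. Its mean was 38.8 ± 31.5 TPM (SD, n = 4), and GFP- replicate 3 alone held 53.4% of its summed TPM. Without GFP- replicate 3 its mean was 24.1 TPM, and it ranked sixth among the 151. The next, ENSDART00000130100.3, of 3917 bases, had 1.92, 10.6, 115.5 and 15.19 TPM, from 53, 233, 845 and 421 reads, against 0 reads in each GFP+ library. GFP- replicate 3 held 80.7% of its summed TPM and was 60.2-fold above GFP- replicate 1. Without GFP- replicate 3 its mean was 9.23 TPM, at rank 59. Without GFP- replicate 1 it passed the strongest, with means of 47.1 and 45.7 TPM, and without GFP- replicate 4 likewise, with 42.7 and 38.4 TPM. The order of this pair thus depended on single libraries.

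The other 13 of the 15 strongest had means between 20.8 and 30.1 TPM and lengths between 969 and 11949 bases. The transcript at rank 3, of 3460 bases, was among the more even ones, with 30.6, 16.3, 45.9 and 27.7 TPM in GFP- replicates 1 to 4. The transcript at rank 5, of 6688 bases, had 22.7, 20.01, 21.6 and 46.5 TPM, with GFP- replicate 4 apart from 3 close values. By contrast, the transcript at rank 6, of 5026 bases, had 3.44, 10.7, 95.3 and 0.991 TPM. GFP- replicate 3 was again the high library there, with 86.3% of the summed TPM. The transcript at rank 8, of 969 bases, ran the other way, with 49.2 and 34.9 TPM in GFP- replicates 1 and 2 but 8.75 and 9.63 TPM in GFP- replicates 3 and 4. At rank 10, a transcript of 11949 bases had 11.3, 9.95, 18.9 and 53.4 TPM and was highest in GFP- replicate 4. Of the 15 strongest, all but those at ranks 5, 8, 10 and 11 were highest in GFP- replicate 3. When GFP- replicate 3 was left out of the means, 6 of these 15 were still among the 15 strongest of the 151, against 14, 12 and 13 when GFP- replicate 1, 2 or 4 was left out.

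**Figure D3:**
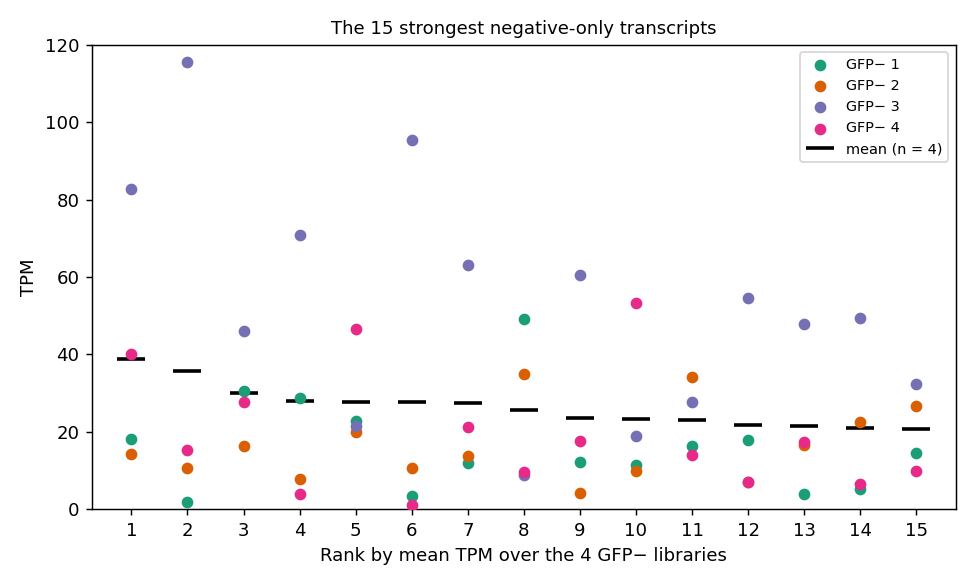
TPM (vertical axis) of the 15 strongest negative-only transcripts in rank order of mean TPM (horizontal axis), with 1 point for each GFP- library and a black bar for the mean of the 4. GFP- replicate 3 is the highest library at all ranks shown but 5, 8, 10 and 11. It lies far above the others at ranks 2 and 6, with 115.5 and 95.3 TPM, while rank 8 is highest in GFP- replicate 1, with 49.2 TPM.

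The negative-only transcripts varied widely between pools. The coefficient of variation, which is the SD over the 4 GFP- libraries divided by their mean, had a median of 0.722 (quartiles 0.543 and 0.895), and the highest library was a median of 6.22-fold above the lowest. Among the 4822 shared transcripts within the same range of mean TPM, the medians were 0.624 and 5.09-fold. The order held in each band of abundance from 2 to 40 TPM, with medians of 0.720 against 0.614 for negative-only and shared transcripts at 2 to 5 TPM, 0.720 against 0.673 at 5 to 10 TPM, 0.751 against 0.646 at 10 to 20 TPM and 0.811 against 0.572 at 20 to 40 TPM. A wide spread was not particular to this list. Over the 4 GFP+ libraries, the 52 transcripts of the mirrored rule had medians of 0.743 and 5.82-fold. Within the same TPM range, the median coefficient of variation also rose with the number of GFP+ libraries at 0. It was 0.604, 0.646, 0.670, 0.696 and 0.722 for transcripts at 0 in 0, 1, 2, 3 and 4 of them. These values describe transcripts that share their libraries and were not tested.

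A few negative-only transcripts had nearly equal values in all 4 pools. The highest library was less than 2-fold above the lowest in 8 of 151 (5.30%), against 416 of 4822 shared transcripts in the same TPM range (8.63%). The most even was the transcript ranked 48, of 5904 bases, with 11.6, 10.6, 10.1 and 12.4 TPM in GFP- replicates 1 to 4 and a coefficient of variation of 0.0921. At rank 52, a transcript of 1843 bases had 11.01, 10.6, 9.02 and 12.2 TPM, and at rank 41 a transcript of 4184 bases had 16.3, 9.75, 10.3 and 11.6 TPM. All 3 of these rested on whole read numbers and on at least 66 reads per library. The other 2 of the 5 most even transcripts above 10 TPM, at ranks 22 and 19, had coefficients of variation of 0.342 and 0.357.

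At the other end, the highest library was 10-fold or more above the lowest in 47 negative-only transcripts (31.1%), against 1193 of the shared transcripts in range (24.7%). GFP- replicate 3 was the highest library in 31 of these 47. By coefficient of variation, the most uneven transcript above 10 TPM, at rank 25 and of 3277 bases, had 2.86, 0.953, 61.6 and 2.76 TPM, so that GFP- replicate 3 held 90.4% of its summed TPM. Ranks 56, 6, 50 and 2 followed, with coefficients of variation between 1.49 and 1.66, and each was highest in GFP- replicate 3. By the highest library over the lowest, ranks 6 and 36 came first, with 96.1-fold and 90.7-fold, against 64.7-fold at rank 25. The lowest libraries held 27 reads at rank 6, 10 at rank 36 and 21 at rank 25. The number at rank 36 is the minimum of 10 reads. All 3 folds carry counting error from these low numbers, and it is largest at rank 36. Rank 36 is given here after its values were seen.

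**Figure D4:**
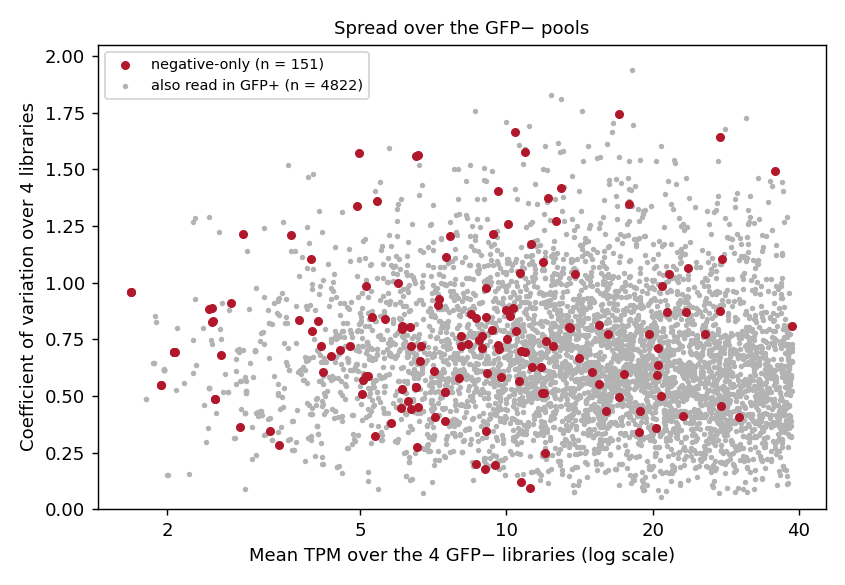
Coefficient of variation over the 4 GFP- libraries (vertical axis) against mean TPM (horizontal axis, log scale) for the 151 negative-only transcripts and the 4822 shared transcripts in the same range of mean TPM. The negative-only transcripts lie through the whole cloud, from 0.0921 to 1.74, with a median of 0.722 against 0.624 for the shared transcripts.

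GFP- replicate 3 stood apart for the negative-only transcripts as a whole. It was the library of highest TPM for 69 of the 151 (45.7%), against 19, 24 and 39 for GFP- replicates 1, 2 and 4. Among transcripts in the same TPM range, its part rose with the number of GFP+ libraries at 0. Abundance was not matched within this range, with medians of 8.76 TPM for the negative-only and 15.3 TPM for the shared transcripts. GFP- replicate 3 was the highest library for 727 of 2928 transcripts read in all GFP+ libraries (24.8%), and for 29.9%, 32.5% and 38.1% of those at 0 in 1, 2 and 3 GFP+ libraries. It was the lowest library for 25 of the 151 (16.6%), against 1576 of the 4822 shared transcripts in range (32.7%). This library also had the fewest reads, and the rule set its highest minimum in TPM there. The part of depth in this pattern was not tested. With GFP- replicate 3 left out, the 151 transcripts had a median coefficient of variation of 0.650 and a median of 4.08-fold between the highest and lowest of 3 libraries, against 0.546 and 3.09-fold for the shared transcripts in range.

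The order of the negative-only transcripts was only loosely repeated from pool to pool. Across the 151 transcripts, which are not independent replicates, the correlation of log2 TPM was 0.34 between GFP- replicates 1 and 2, 0.43 between 1 and 4 and 0.39 between 2 and 4. It was 0.13, 0.12 and 0.18 between GFP- replicate 3 and replicates 1, 2 and 4. The range over the 6 pairs, 0.12 to 0.43, was close to that of the shared transcripts in the same TPM range, 0.14 to 0.38, and both sets have a narrowed range of abundance.

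Length was not used by the rule. The negative-only transcripts had a median length of 2516 bases (quartiles 1844 and 4252, range 448 to 15297), the shared transcripts 2784 bases (quartiles 1701 and 4630) and the shared transcripts in the same TPM range 3015 bases. The 52 transcripts of the mirrored rule had a median of 2339 bases, and all 52122 listed transcripts 1564 bases. The difference from shared transcripts changed direction with abundance. At 2 to 5 TPM the median was 2059.5 bases for negative-only against 2774.5 for shared transcripts, and at 5 to 10 TPM 2585 against 2856. At 10 to 20 TPM it was 3387 against 3077.5 bases, and at 20 to 40 TPM 3460 against 3032. Of the 151, 17 (11.3%) were shorter than 1000 bases, against 669 of 7092 shared transcripts (9.43%). From 4000 to 8000 bases there were 30 (19.9%), against 1861 shared transcripts (26.2%). At 8000 bases or more there were 13 (8.61%), against 383 shared transcripts (5.40%) and 0 of 52 under the mirrored rule. Differences in length were not tested, since transcripts are not replicates and several belong to groups that share reads.

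Among the 100 strongest, the 3 shortest had 448, 464 and 523 bases, at ranks 65, 68 and 73. The one of 523 bases was among the even ones, with 7.51, 10.0, 7.87 and 10.8 TPM in GFP- replicates 1 to 4, while that of 448 bases had 2.51, 5.57, 29.7 and 0.777 TPM. The 3 longest had 15297, 14403 and 12460 bases, at ranks 96, 98 and 81. The transcript of 15297 bases had 1.16, 0.791, 21.9 and 2.39 TPM, and that of 14403 bases had 1.16, 0.790, 21.7 and 2.38 TPM, so the values of this pair cannot be told apart.

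**Figure D5:**
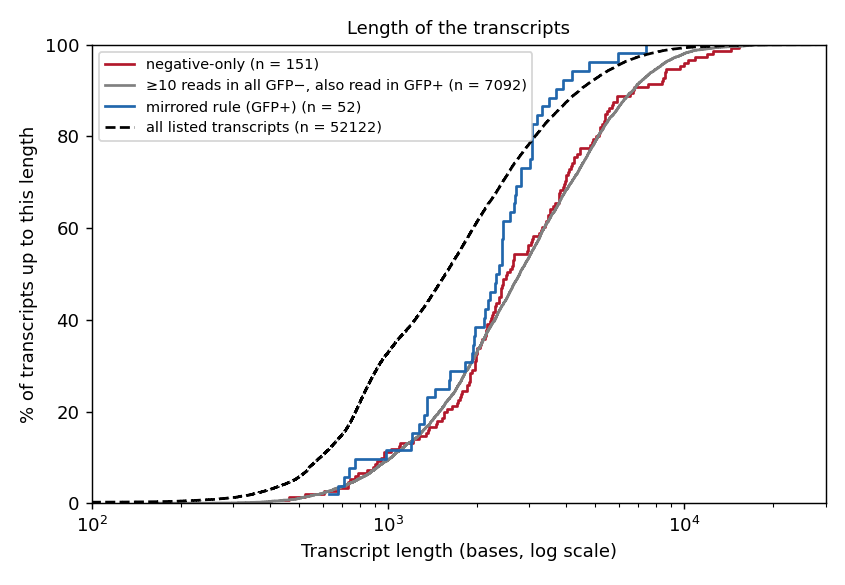
Cumulative percent of transcripts (vertical axis) up to a given length in bases (horizontal axis, log scale) for negative-only transcripts, shared transcripts, the 52 transcripts of the mirrored rule (GFP+-only) and all listed transcripts. The negative-only curve, with a median of 2516 bases, runs near that of the shared transcripts, with 2784 bases, and right of all listed transcripts, with 1564 bases.

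Reads divided between transcripts bear on the number of 151. A read that fits more than 1 transcript is split by Salmon in proportion to their estimated abundance, and 90 of the 151 (59.6%) had a divided read number in at least 1 GFP- library, against 56.0% of the shared transcripts. The 61 with whole read numbers in all GFP- libraries had a median mean abundance of 9.96 TPM and a median length of 2585 bases, against 8.19 TPM and 2508 bases for the 90. In 11 groups, 10 of 2 transcripts and 1 of 4, the members differed by at most 5% in every GFP- library, and all 24 transcripts in these groups had divided reads. With each group counted once, the 151 stand for 138 patterns of reads at this limit of 5%. Ranks 66 and 73, both with divided reads, missed the limit in GFP- replicate 4 alone, with 11.5 and 10.8 TPM. The number of separate patterns may therefore be lower. Such groups were frequent at the weak end, where they held 12 of the 14 negative-only transcripts of lowest mean TPM, against 4 of the 50 strongest. The window of 14 opens at a grouped pair, ranks 138 and 139, and is smaller than that of 50, so these numbers are not a like comparison. A transcript with divided reads can be at 0 in GFP+ cells while another transcript that shares its sequence takes the reads, and this was not tested.

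A count model was fitted over all transcripts to show how the negative-only transcripts rank in the usual comparison of GFP- with GFP+ cells. Since the rule used the same reads, the calls are a description and no evidence that these transcripts differ. Of the 151, 147 passed edgeR's filter on low counts and 4 did not. At an FDR under 0.01 with a log2 fold change above 2, edgeR's quasi-likelihood test called 3 of the 147 higher in GFP- cells, against 76 of all 13379 transcripts tested (0.568%). The 3 were those at ranks 1, 3 and 5, with edgeR adjusted p-values of 0.00643, 0.00765 and 0.00918. At an FDR below 0.1 with any positive fold change, 147 of 147 were called, against 668 of 13379 (4.99%). All 4 GFP- libraries lay above all 4 GFP+ libraries in reads in 953 of the 13379 transcripts (7.12%), and by the rule they do so in every negative-only transcript. With the pool as a replicate block, edgeR called 0 negative-only transcripts at the stricter thresholds, against 79 of all transcripts (0.590%), while all 147 had an unadjusted p below 0.05. DESeq2's Wald test, at the same thresholds, called 143 of the 143 negative-only transcripts with an adjusted p. Of all transcripts with an adjusted p, it called 1309 of 18076 (7.24%). Without the filter on low counts edgeR called 32 negative-only transcripts, against 1.36% of all transcripts, and with bias-adjusted deviance 12, against 2.47%. With pool 1, 2, 3 or 4 left out, edgeR called 0 of the 147 or 148 negative-only transcripts tested, all with an unadjusted p below 0.05, against 0.0368%, 0.00714%, 0.102% and 0.0596% of all transcripts tested. The number called thus turned on the model, the thresholds, the filter and the pools used.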

How the data were processed

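Reads were 75-base single-end QuantSeq 3' reads of GFP- and GFP+ cells. The authors quantified them with Salmon 0.9.1 (quasi-mapping, length correction switched off) on the Ensembl release 90 transcripts of GRCz10, and deposited per library an estimated count (expected count, not always whole) for 52122 transcripts. The deposited TPM values equal the counts scaled to the same total to within 1.69e-06, since the effective length is 100 for each transcript. The length in bases was used as deposited.

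Population and replicate number came from the library titles, and the pool from the tissue labels. Estimated counts were rounded, and the rule was applied. TPM was used for abundance and spread, 95% Wilson intervals for shares, and edgeR 4.0.16 (TMM, filterByExpr, quasi-likelihood F test with legacy deviance, Benjamini-Hochberg) in R 4.3.3 for counts, with DESeq2 1.42.0 as an alternative. The edgeR step was run on simulated data in which no transcript was set to 0 in a whole population. That run therefore does not cover transcripts like the negative-only ones. Totals ranged from 7316619 to 27727554 reads, so 3 reads are 0.108 to 0.410 TPM. Per the labels, same-numbered libraries come from the same pool of retinas. Their deviations from the population means correlated between -0.00350 and 0.0651 over 13379 transcripts.

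Members and marker lists were chosen with earlier results of these data known. Named transcripts were the 15 of highest mean TPM, the 5 most and 5 least even above 10 TPM, and the 3 longest and 3 shortest of the 100 strongest. Only 2 are given by identifier, and the marker lists were not used, since no table used here pairs transcripts with genes. The replicates are pools of separate fish. Alternatives were other minimums, stricter and looser GFP+ limits, each pool left out, whole reads only, TMM scaling, and other count models. Single libraries were left out as an alternative chosen after seeing the data.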

Additional observations from a re-analysis of the deposited data

Results flagged for a closer look

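Each of 32 sets of 4 libraries was examined for a library far from the rest, by the ratio of its gap to the nearest library over the whole range. Dixon's 95% critical value for 4 values was passed in 9, all of them TPM values of single negative-only transcripts in the GFP- libraries. Chance gives about 1 in 20, but the rule used these values and some of the transcripts were named for their spread, so the number of cases is a description and cannot be read against chance. GFP- replicate 3 was the high library in 8 of the 9, at rank 2 with 115.5 TPM, rank 6 with 95.3 TPM, rank 25 with 61.6 TPM, rank 50 with 36.5 TPM, rank 56 with 36.4 TPM, rank 65 with 29.7 TPM, rank 96 with 21.9 TPM and rank 98 with 21.7 TPM. The last 2 share reads and are not separate cases, and ranks 2, 6, 25, 50 and 56 were named for their spread. In the other case, at rank 5, GFP- replicate 4 was high with 46.5 TPM. Over all 151 negative-only transcripts, 21 passed the critical value (13.9%), and GFP- replicate 3 was the high library in 14 of them. Among the 4822 shared transcripts in the same range of mean TPM, 395 passed it (8.19%), and GFP- replicate 3 was likewise the most frequent high library, in 163. The share of reads on the negative-only transcripts and their median TPM did not pass it. GFP- replicate 3 has the smallest total, and the part of depth or of library preparation was not tested.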

How the results depend on the processing

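The number of 151 negative-only transcripts was 298 with up to 1 read allowed in each GFP+ library, 61 with whole reads only, from 335 to 554 with a pool left out, and from 206 to 412 with a single GFP- or 231 to 269 with a single GFP+ library left out. With a pool or a GFP- library left out, the highest number came without replicate 3. The mean share of GFP- reads was 0.381% with up to 1 GFP+ read, 0.222% with the most-read transcript left out of the totals, and 0.340% to 0.446% with a pool left out. Median abundance lay between 5.95 and 8.45 TPM on the longer lists given with a pool left out. For the same 151 it was 8.94, 8.33, 6.45 and 8.46 TPM without pool 1, 2, 3 or 4. The spread and length given below with a pool left out are likewise those of the longer lists. The median coefficient of variation was 0.759 with a minimum of 5 reads, 0.699 with 20 reads, 0.698 with 1 TPM, 0.754 on TMM-normalized CPM and 0.664 to 0.703 with a pool left out. Median length was 2658 bases with a minimum of 20 reads, 2654 with up to 1 GFP+ read, and 2448 to 2621 with a pool left out. The 3 calls of the edgeR fit became 0 with the pool as a replicate block and 0 with any pool left out. All members tested in these fits kept an unadjusted p below 0.05. The calls became 12 with bias-adjusted deviance, 32 without the filter on low counts and 147 at an FDR below 0.1. DESeq2 called 143, which were all members with an adjusted p. Among all 66 alternatives, 27 stayed within a set tolerance and 39 moved. The tolerance was 1.5 times the count for numbers of transcripts, and the SD over the GFP- libraries for share and abundance. For spread and length it was the SD of the values obtained with each pool left out. Those values were themselves among the ones judged, so the numbers 27 and 39 depend in part on this choice. The cause of these moves was not tested, except that leaving out libraries relaxes the rule. The depth of GFP- replicate 3 limits what the rule can find below 1.37 TPM there.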
